A study of Homo sapiens with 12 samples.

Results

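Interferon receptors, the kinases and transcription factors behind them, and a panel of interferon-stimulated genes were followed in MonoMac6 (MM6) cells, an established human acute myeloid leukemia line of monocytic type. The set was a list of 47 gene symbols, all present among the 19951 gene entries of the table, and a gene was kept when its mean over the 6 mRNA libraries was at least 10. This kept 46 of the 47 genes, out of 12203 genes in the whole table that passed the same minimum. Just inside the limit lay OASL with a mean of 12 and IFITM1 with 12.8, and just outside it IFI44L with 9.33, which is not tested below. The compared cells carried the hairpin shBP2-1 or the hairpin shBP2-2, both aimed at IGF2BP2, an RNA-binding protein that recognises m6A-modified transcripts, or the control hairpin shNS. All 3 groups went through lentiviral transduction for 48 h and puromycin selection for 2 days, so the controls carry these treatments too. From each group 2 mRNA libraries and 2 libraries of ribosome-protected fragments, called footprints (from cells held with cycloheximide for 15 min), were sequenced, which made 12 libraries. Nothing in the labels says that the replicates were separate cultures, so p-values measure the spread between these libraries, which may be technical.

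Interferons bind paired receptor chains at the cell surface: IFNAR1 with IFNAR2 for type I interferons, and IFNGR1 with IFNGR2 for interferon gamma. The receptor-bound kinases JAK1 and TYK2 then activate transcription factors such as STAT2, which acts in a complex with IRF9 that binds interferon-stimulated response elements in DNA. The genes switched on this way include sensors of viral RNA, proteins that block viral entry or translation, and the ubiquitin-like modifier ISG15. Monocytes respond strongly to both kinds of interferon.

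The deposited values were normalized read counts rounded to whole numbers. They are given here after division by 1 median-ratio factor per library within each assay, and are called rescaled values. They are not per length and are compared within a gene only, and changes are relative to the middle of all genes. Deposited values summed to between 22685066 and 24854593 in the mRNA libraries and to between 456338 and 4884067 in the footprint libraries, lowest with shBP2-1. The factors ran from 0.975 to 1.02 for mRNA and from 0.266 to 3.01 for footprints. The 2 shBP2-1 footprint libraries had a mean chi-square per gene of 0.964 on 1 degree of freedom, about the sampling noise of raw counts. It was 1.85 in shBP2-2 and 3.39 in shNS. These values are normalized, and the chi-square grows with depth, which in footprints was lowest in shBP2-1. In mRNA, at nearly equal totals, it was 24.3 in shBP2-1, 11.2 in shBP2-2 and 2.94 in shNS. The fits pooled the spread of these unequal groups. The log2 ratio between footprint replicates had an SD of 0.452 in shBP2-1, 0.436 in shBP2-2 and 0.395 in shNS. For mRNA replicates the SD was 0.329, 0.309 and 0.336 in the same order. Whether the shBP2-1 footprint libraries are 1 library sequenced in parts is not known. Each shBP2-1 footprint call is therefore also given with these 2 libraries counted as 1 sample. IGF2BP2 mRNA stood at 20.2% of shNS with shBP2-1 and at 31.3% with shBP2-2, and its footprints at 5.64% and 10.7%. All 10 monocytic markers were detected, with summed mRNA values of 166900 to 170500 in shBP2-1, 97320 to 97410 in shBP2-2 and 115100 to 117300 in shNS. Such sums weigh abundant markers most. Tested singly by limma, 3 were higher, 2 lower and 5 not called with shBP2-1 (median log2 fold change -0.15). With shBP2-2, 2 were higher, 4 lower and 4 not called (median 0.01). Over all tested genes, 44.6% and 56.9% were called. The 6 markers of T and NK cells summed to between 1453 and 2120, nearly all from NKG7, since the other 5 had deposited values of at most 3. Markers of plasmacytoid dendritic cells summed to 24.8 to 26.5 in shBP2-1, 48.2 to 56.9 in shBP2-2 and 33.8 to 39.7 in shNS, and those of B cells, erythroid cells, and epithelial cells and fibroblasts to at most 30.8. The part of these marker differences in the results was not tested, and in bulk RNA fewer cells of a type and less RNA per cell cannot be told apart.

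Many of these genes carry the response element close to their start. GAAA, then 2 bases of any kind (NN), then GAAA, the core of that element, was searched on both strands of the 300 bases around each annotated start (250 before, 50 after; RefSeq, GRCh38.p14). Adjacent matches can overlap. Of the 37 members with a promoter entry, 21 held a match (56.8%), against 4.38% of the 27305 genes with an entry and 3.57% of all promoters. The matches lay in all 3 entries of the IFIT family, all 3 of the PARP and DTX3L group and 9 of 14 other induced genes. They also lay in both entries of the IFITM family, 2 of 3 of the ISG15 system and 2 of 4 RNA sensors and RNA-modifying enzymes. None lay in the 5 receptors and kinases or the 3 transcription factors that had an entry. The following stretches, 5′ to 3′ on the strand of the gene with the matches in capitals, belong to genes whose mRNA or footprints are described below.
DTX3L, chr3:122564312-122564361, plus strand: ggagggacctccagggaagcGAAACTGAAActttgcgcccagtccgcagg
PARP14, chr3:122680790-122680839, plus strand: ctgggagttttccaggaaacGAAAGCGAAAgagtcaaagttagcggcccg
SAMD9, chr7:93118086-93118135, minus strand: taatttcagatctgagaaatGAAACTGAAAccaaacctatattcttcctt
IFI44, chr1:78649751-78649800, plus strand: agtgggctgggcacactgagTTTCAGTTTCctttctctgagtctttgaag
IFIT3, chr10:89327821-89327904, plus strand: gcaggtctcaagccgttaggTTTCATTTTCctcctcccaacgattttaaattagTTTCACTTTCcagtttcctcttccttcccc
IFI6, chr1:27672256-27672368, minus strand: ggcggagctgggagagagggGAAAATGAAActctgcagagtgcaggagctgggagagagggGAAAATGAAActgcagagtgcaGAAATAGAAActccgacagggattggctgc
The DTX3L match, at 122564332 to 122564341 on chromosome 3, is also the match of PARP9, which starts beside DTX3L on the other strand. The match is a description of letters in a window, and no test was made of it.

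In mRNA, both hairpins were compared with the same shNS libraries, so calls shared between them are not independent. IFI44, IFIH1, IFNAR1, IFNGR1, JAK1, PARP14, PARP9, SAMD9 and SAMD9L were higher with each, and IRF1, IRF7 and TYK2 were lower. In each of these genes, shBP2-1 replicate 2 and shBP2-2 replicate 1 lay further from shNS than the other replicate. Over all tested genes, the differences between replicates 1 and 2 correlated at -0.359 between the hairpins. Whether such library differences contributed to these calls was not tested. With shBP2-1, 10 of 46 members were higher and 7 lower (37.0% called), against 44.6% of all tested genes called (23.2% higher and 21.4% lower). With shBP2-2, 17 were higher and 7 lower (52.2%), against 56.9% of all genes called (28.5% higher and 28.4% lower). With all libraries in the fit the shares called in either direction are below the background. With shBP2-2 the members leaned to higher values (17 against 7), where all genes did not (28.5% and 28.4%). Whether this leaning is particular to interferon genes was not tested. The median log2 fold change of the members was 0.05 with shBP2-1 and 0.26 with shBP2-2, against -0.02 and 0.01 over all tested genes. Libraries did not overlap between shBP2-1 and shNS for 18 members that were above and 15 below, where 77.7% of all genes did not overlap, nor between shBP2-2 and shNS for 22 above and 11 below, against 83.5% of all genes. All two-sided calls come from limma with voom weights; the adjusted p (Benjamini-Hochberg, 12203 genes) had to be under 0.05, with 3 residual degrees of freedom, and values after ± are standard errors unless marked SD. The 17 calls with shBP2-1 became 10 of 46 without shNS replicate 1, where 16.7% of all genes were called. The 24 calls with shBP2-2 became 8 without shNS replicate 1 (34% of all genes) and 9 without shBP2-2 replicate 1 (34.1%). Each fit that leaves out a library has a group of 1, which is assumed to vary like the other groups. For translational efficiency, described below, such fits left out the mRNA and the footprint library of the same replicate number together. Where calls are said to be lost under other settings, these are settings besides leaving out a library and the replicate block.

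**Figure D1:**
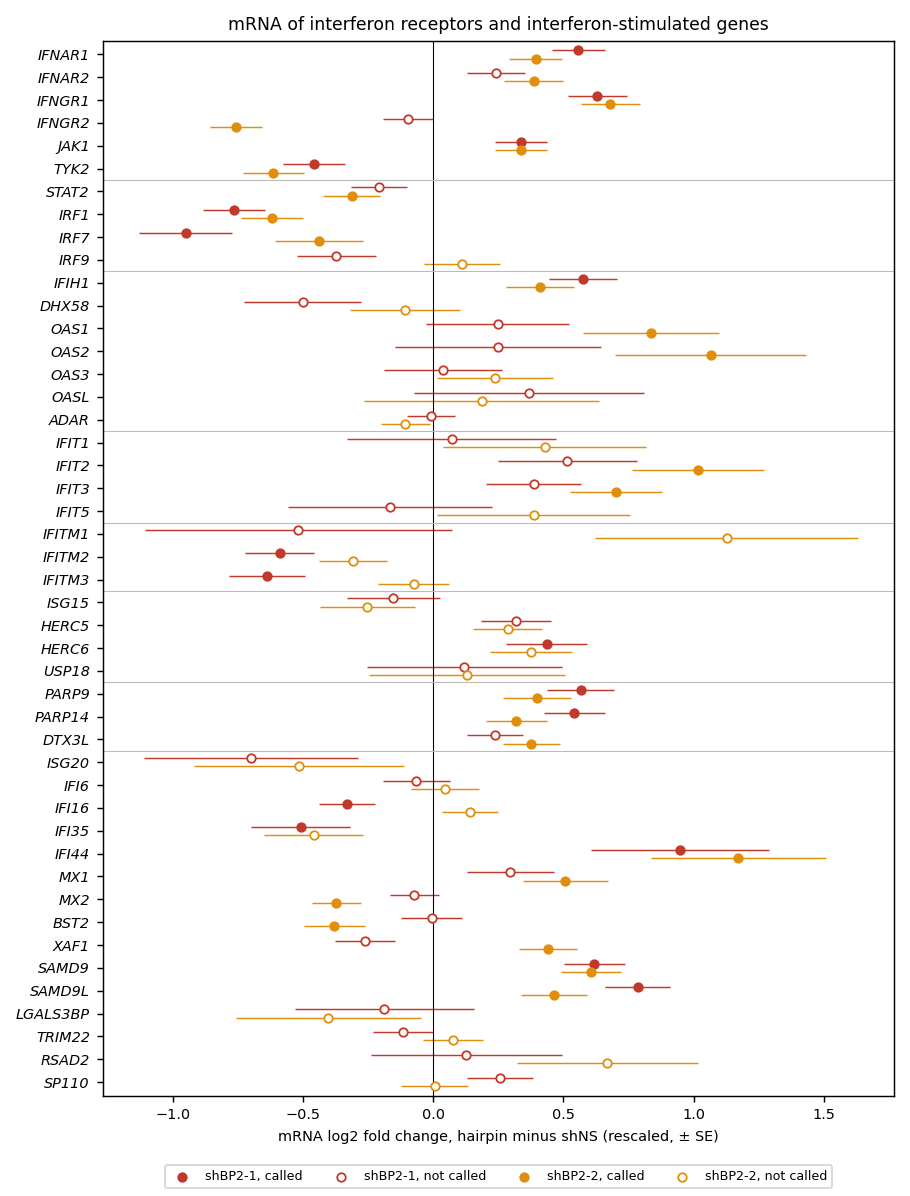
mRNA log2 fold change of 46 members, grouped by role from receptors at the top to other induced genes at the bottom, for shBP2-1 (red, upper point) and shBP2-2 (orange, lower point) against shNS. Filled points passed an adjusted p of 0.05 and bars are standard errors from 2 libraries per group. Most values lie within 1 log2 unit of 0, and the extremes are -0.95 for IRF7 with shBP2-1 and 1.17 for IFI44 with shBP2-2.

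The chains of the interferon gamma receptor went opposite ways in mRNA with shBP2-2. IFNGR1 (chromosome 6, 137197484 to 137219385), the ligand-binding chain for interferon gamma, had rescaled mRNA values of 4430 and 5330 in shBP2-1 and 5289 and 4783 in shBP2-2, against 2948 and 3343 in shNS. Both knockdown groups lay above both control libraries, by 0.63 ± 0.11 (adjusted p = 0.00144) and 0.68 ± 0.11 (0.000485) on the log2 scale. IFNGR2 (chromosome 21, 33402882 to 33437516), its signalling partner, had 1466 and 1439 in shBP2-1 and 934 and 904 in shBP2-2, against 1506 and 1605 in shNS. The shBP2-2 libraries stood far below the other 4, at -0.76 ± 0.10 (adjusted p = 0.000132), with -0.10 ± 0.10 for shBP2-1 (0.418), and the hairpins differed by 0.66 ± 0.10 (0.000453).

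IFNAR1 (chromosome 21, 33324395 to 33359864), a signal-transducing chain of the type I receptor, had 3339 and 3808 in shBP2-1 and 3279 and 3094 in shBP2-2, against 2345 and 2504 in shNS. It rose by 0.56 ± 0.10 with shBP2-1 (adjusted p = 0.00152) and by 0.39 ± 0.10 with shBP2-2 (0.00582). IFNAR2 (chromosome 21, 33229938 to 33265664), the high-affinity chain, had 1568 and 1866 in shBP2-1 and 1990 and 1796 in shBP2-2, against 1390 and 1506 in shNS. It was called with shBP2-2 (0.39 ± 0.11, adjusted p = 0.0109) and was at 0.24 ± 0.11 with shBP2-1 (0.0948), with a difference between hairpins of -0.14 ± 0.11 (0.377).

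The receptor-bound kinases moved in opposite directions. JAK1, which serves both receptors, rose by 0.34 ± 0.10 with each hairpin (adjusted p = 0.0165 with shBP2-1 and 0.0122 with shBP2-2). TYK2 (chromosome 19, 10350533 to 10380572), which sits on IFNAR1, had 3115 and 2529 in shBP2-1 and 2311 and 2758 in shBP2-2, against 3866 and 3859 in shNS. It fell by 0.46 ± 0.12 (adjusted p = 0.0085) with shBP2-1 and by 0.61 ± 0.12 (0.0011) with shBP2-2. Calls with shBP2-2 were lost without shBP2-2 replicate 1 for IFNAR1 (adjusted p = 0.0542), IFNAR2 (0.0947) and JAK1 (0.139), and without shNS replicate 1 for IFNAR1 (0.0811), IFNAR2 (0.112) and JAK1 (0.149). Calls with shBP2-1 were lost without shNS replicate 1 for JAK1 (adjusted p = 0.184) and TYK2 (0.064), and without shNS replicate 2 for JAK1 (0.0623).

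**Figure D2:**
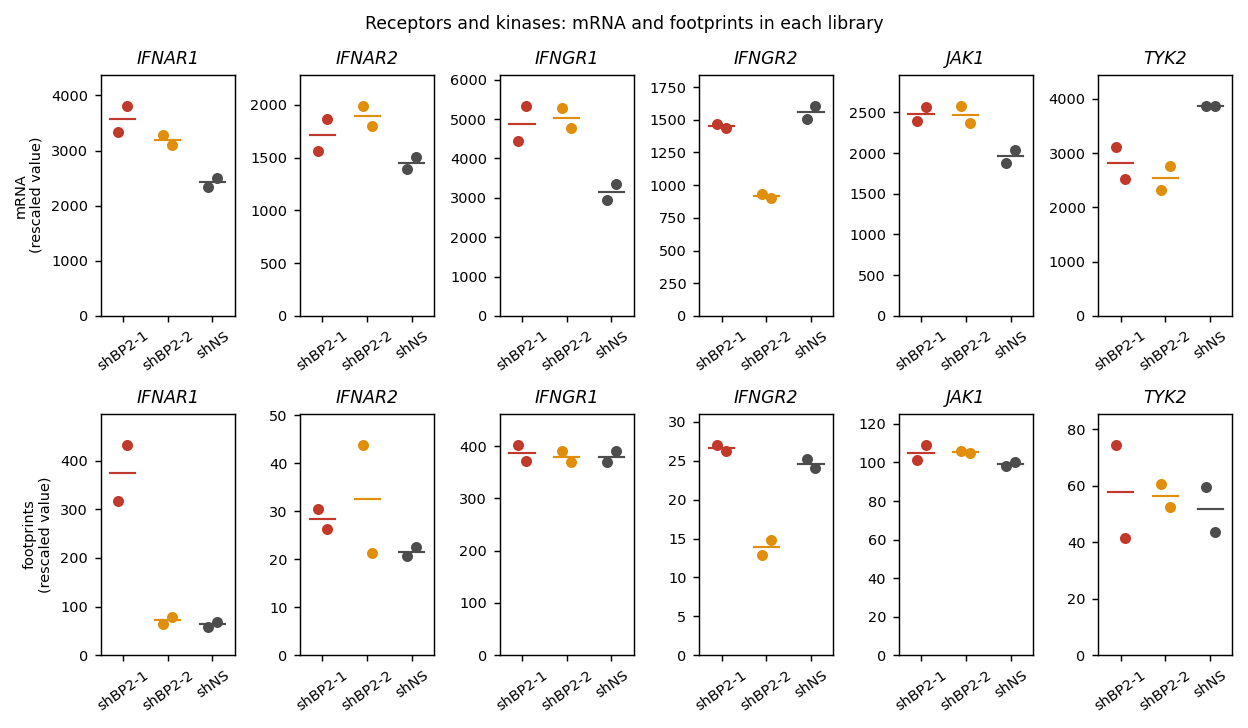
Rescaled mRNA values (upper row) and rescaled footprint values (lower row) of the 4 receptor chains and 2 kinases in each library, with the group mean as a line (n = 2 libraries each). IFNAR1 footprints are at 317 and 432 in shBP2-1 and at most 78.9 in every other library, while the mRNA of IFNAR1 differs far less between groups.

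Ribosome footprints of IFNAR1 stood out among the members. Deposited footprint values were 94 and 115 in shBP2-1 and 65 and 122 in shBP2-2, against 174 and 187 in shNS, with the lowest library totals in shBP2-1. After rescaling they were 317 and 432 in shBP2-1 and 64.5 and 78.9 in shBP2-2, against 57.8 and 69.2 in shNS. Both shBP2-1 libraries lay above all the others. Of all genes tested for footprints, 62% did not overlap between shBP2-1 and shNS, and 60% between the hairpins. The increase was 5.85-fold with shBP2-1 (log2 2.55 ± 0.17, adjusted p = 1.34e-06), with 0.21 ± 0.18 for shBP2-2 (0.476), and the hairpins differed by 2.34 ± 0.19 (1.28e-05). Translational efficiency, the footprint change minus the mRNA change, rose 3.98-fold with shBP2-1 (1.99 ± 0.23, adjusted p = 0.000206) and differed between the hairpins by 2.18 ± 0.26 (0.000165). The footprint value with shBP2-1 ranged from 2.34 to 2.79 when any 1 library was left out, and was 2.57 (adjusted p = 3.99e-07) with the shBP2-1 libraries as 1 sample. Counted that way, the difference between hairpins was 2.36 in footprints (1.84e-06), and translational efficiency was at 2.01 against shNS (5.6e-05) and at 2.20 between the hairpins (7.61e-05). In the deposited values without rescaling, where the median gene was at -3.32, it was at -0.79 (adjusted p = 0.0164). Where on the transcript the IFNAR1 footprints lay was not analysed here.

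Footprints of the other receptor and kinase genes were not called with either hairpin. IFNGR1 footprints were 402 and 372 in shBP2-1 and 390 and 370 in shBP2-2, against 369 and 390 in shNS. The groups overlapped, with changes of 0.04 ± 0.12 for shBP2-1 and -0.00 ± 0.07 for shBP2-2, beside the higher mRNA. IFNGR1 translational efficiency fell with shBP2-2 (-0.68 ± 0.16, adjusted p = 0.0069) and was at -0.60 ± 0.21 with shBP2-1 (0.0742). The shBP2-2 call was lost without shBP2-2 replicate 1 (adjusted p = 0.0541) or shNS replicate 1 (0.0787). IFNGR2 footprints were 27.0 and 26.3 in shBP2-1 and 12.9 and 14.9 in shBP2-2, against 25.2 and 24.04 in shNS, and the shBP2-2 change of -0.78 ± 0.26 was not called (adjusted p = 0.0685). IFNAR2, JAK1 and TYK2 footprints were not called with either hairpin, at changes between 0.09 and 0.48.

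Of the 4 transcription factors tested, 2 were lower with shBP2-1 and 3 with shBP2-2, and 0 were called higher by limma with either. Over all tested genes, 21.4% and 28.4% were lower and 23.2% and 28.5% higher, and a group of 4 is small. IRF1 (chromosome 5, 132481609 to 132490773), which binds response elements and is itself induced by interferon gamma, had 458 and 397 in shBP2-1 and 470 and 474 in shBP2-2, against 762 and 688 in shNS. All 4 knockdown libraries were below both controls, and IRF1 mRNA fell by 0.76 ± 0.12 with shBP2-1 (adjusted p = 0.000748) and by 0.62 ± 0.12 with shBP2-2 (0.00102). Its footprints were 50.6 and 71.3 in shBP2-1 and 49.6 and 53.7 in shBP2-2, against 60.5 and 57.0 in shNS, with changes of 0.06 ± 0.26 and -0.17 ± 0.16 that were not called.

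IRF7, the amplifier of type I interferon production, had 170 and 119 in shBP2-1 and 187 and 221 in shBP2-2, against 294 and 258 in shNS, and again both knockdown groups were below the controls. It fell by 0.95 ± 0.18 with shBP2-1 (adjusted p = 0.00178) and by 0.44 ± 0.17 with shBP2-2 (0.0395). STAT2 fell with shBP2-2 (-0.31 ± 0.11, adjusted p = 0.0245) and was at -0.21 ± 0.11 with shBP2-1 (0.125). IRF9 was at -0.37 ± 0.15 with shBP2-1 (adjusted p = 0.0617) and 0.11 ± 0.15 with shBP2-2 (0.525), and the hairpins differed by -0.48 ± 0.15 (0.0349). The shBP2-2 call of IRF7 was lost without shBP2-2 replicate 1 (adjusted p = 0.222), shNS replicate 1 (0.226) or shNS replicate 2 (0.0551) and under 4 of 10 other settings (0.0507 to 0.0898). That of STAT2 was lost without shBP2-2 replicate 1 (0.0644), shBP2-2 replicate 2 (0.192), shNS replicate 1 (0.123) or shNS replicate 2 (0.163). The IRF9 difference was lost without shBP2-1 replicate 2 (0.109) or shBP2-2 replicate 2 (0.107) and under 4 of 10 other settings (0.0598 to 0.123).

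Among RNA sensors and RNA-modifying enzymes, 1 of 7 was higher with shBP2-1 and 3 of 7 with shBP2-2, and 0 were lower. The shares over all tested genes were 23.2% and 28.5% higher, and 21.4% and 28.4% lower. IFIH1 (chromosome 2, 162267074 to 162318684), which encodes the sensor of long double-stranded RNA MDA5, had 886 and 1055 in shBP2-1 and 889 and 834 in shBP2-2, against 582 and 722 in shNS. All 4 knockdown libraries lay above both controls, and IFIH1 rose by 0.58 ± 0.13 with shBP2-1 (adjusted p = 0.00435) and by 0.41 ± 0.13 with shBP2-2 (0.0174).

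OAS1 and OAS2 make the second messenger that activates RNase L. OAS1 had 37.3 and 33.7 in shBP2-1 and 51.3 and 55.9 in shBP2-2, against 28.8 and 30.8 in shNS. OAS2 had 18.6 and 15.9 in shBP2-1 and 36.9 and 25.4 in shBP2-2, against 18.9 and 10.9 in shNS. Both rose with shBP2-2, OAS1 by 0.84 ± 0.26 (adjusted p = 0.015) and OAS2 by 1.06 ± 0.37 (0.0246), at low values. OAS3 and OASL were not called, with 59.6 to 81.0 and 7.9 to 16.3 over all libraries. DHX58, which encodes the RNA helicase LGP2, was at -0.50 ± 0.22 and -0.11 ± 0.21 (adjusted p = 0.0816 and 0.677). ADAR, the editor of double-stranded RNA, was nearly level at 7840 and 8097 in shBP2-1 and 7520 and 7360 in shBP2-2, against 8347 and 7702 in shNS (-0.01 ± 0.09 and -0.11 ± 0.09, adjusted p = 0.944 and 0.338), and its footprints were at -0.14 ± 0.12 and -0.08 ± 0.08. IFIH1 footprints were 57.4 and 63.8 in shBP2-1 and 54.6 and 65.3 in shBP2-2, against 75.1 and 74.0 in shNS. They were lower in all 4 knockdown libraries without being called by limma (-0.27 ± 0.26 and -0.29 ± 0.14, adjusted p = 0.568 and 0.218). Such separation from shNS was common, at 62% of all genes tested for footprints with shBP2-1 and 54.3% with shBP2-2. The IFIH1 call with shBP2-1 was lost without shNS replicate 1 (adjusted p = 0.0842), and that with shBP2-2 without shBP2-2 replicate 1 (0.0679) or shNS replicate 1 (0.239) and with no minimum (0.0526). OAS1 lost its call without shBP2-2 replicate 1 (0.0528), shBP2-2 replicate 2 (0.0796) or shNS replicate 1 (0.0807), and OAS2 without shBP2-2 replicate 1 (0.194) or shNS replicate 2 (0.187) and under 3 of 10 other settings (0.0535 to 0.166).

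IFIT proteins bind viral RNA and limit its translation. IFIT2 mRNA was 44.1 and 57.5 in shBP2-1 and 69.7 and 73.2 in shBP2-2, against 31.8 and 38.7 in shNS, and it rose by 1.02 ± 0.25 with shBP2-2 (adjusted p = 0.00468). IFIT3 (chromosome 10, 89327997 to 89340968), with 2 response-element matches above, had 152 and 176 in shBP2-1 and 214 and 193 in shBP2-2, against 108 and 144 in shNS. It rose by 0.70 ± 0.18 with shBP2-2 (adjusted p = 0.00496) and was at 0.38 ± 0.18 with shBP2-1 (0.098). In both genes all 4 knockdown libraries lay above both controls. IFIT1 and IFIT5 were not called, with 13.9 to 31.8 and 13.7 to 34.9 over all libraries. The IFIT3 call was lost without shNS replicate 1 (adjusted p = 0.0844).

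IFIT3 had few footprints with shBP2-1. Deposited values were only 2 and 1 in shBP2-1 and 22 and 40 in shBP2-2, against 77 and 51 in shNS. After rescaling they were 6.75 and 3.76 in shBP2-1 and 21.8 and 25.9 in shBP2-2, against 25.6 and 18.9 in shNS. Both shBP2-1 libraries lay below all the others. The footprint change of -1.69 ± 0.68 was not called (adjusted p = 0.16), and translational efficiency fell with shBP2-1 (-2.08 ± 0.54, adjusted p = 0.0251). That call was lost without shBP2-1 replicate 2 (0.199), shNS replicate 1 (0.13) or shNS replicate 2 (0.0595), and passed with the shBP2-1 libraries as 1 sample (-2.22, 0.0326). The difference from shBP2-2 was not called (0.297).

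IFITM proteins sit in membranes and block the fusion of entering viruses. They are close sequence relatives, and reads shared between them leave the assignment of counts uncertain. IFITM2 had 810 and 660 in shBP2-1 and 793 and 995 in shBP2-2, against 1065 and 1139 in shNS, and fell with shBP2-1 (-0.59 ± 0.13, adjusted p = 0.00435). IFITM3 had 168 and 155 in shBP2-1 and 226 and 252 in shBP2-2, against 250 and 252 in shNS, and also fell with shBP2-1 (-0.64 ± 0.15, 0.00459), with a difference between the hairpins of -0.56 ± 0.15 (0.0145). IFITM3 footprints were uneven with shBP2-1: deposited values were 0 and 8, and 47 and 65 in shBP2-2, against 106 and 68 in shNS. IFITM1 had at most 31.5 in any mRNA library, with 4.9 and 7.9 in shBP2-1, 13.3 and 31.5 in shBP2-2 and 6.0 and 13.9 in shNS. It passed the minimum only through shBP2-2, so no test of it is given. The IFITM3 difference was lost without shBP2-2 replicate 2 (0.103) and under 2 of 10 other settings (0.0586 and 0.132), and the shBP2-1 call of IFITM3 in the fit over all 12 libraries (0.0565).

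In the ISG15 system 1 of 4 genes was called in mRNA, with shBP2-1. Over all tested genes, 44.6% were called with shBP2-1 and 56.9% with shBP2-2. ISG15, the modifier itself, had 144 and 116 in shBP2-1 and 109 and 134 in shBP2-2, against 144 and 144 in shNS, and was not called (-0.15 ± 0.18 and -0.25 ± 0.18, adjusted p = 0.491 and 0.247). Its footprints were 37.1 and 33.8 in shBP2-1 and 29.8 and 36.9 in shBP2-2, against 21.6 and 21.8 in shNS. All 4 knockdown libraries exceeded the controls, but the changes of 0.77 ± 0.34 and 0.65 ± 0.20 were not called by limma (adjusted p = 0.196 and 0.0556). Footprint libraries did not overlap with shNS for 62% of all genes with shBP2-1 and 54.3% with shBP2-2. HERC5, the main ligase for ISG15 in human cells, was at 0.32 ± 0.13 and 0.28 ± 0.13 (adjusted p = 0.0661 and 0.084). HERC6, its relative, rose with shBP2-1 (0.44 ± 0.16, adjusted p = 0.0381) at 182 and 211 in shBP2-1 and 180 and 197 in shBP2-2, against 141 and 149 in shNS. USP18, which removes ISG15 and restrains IFNAR2 signalling, stayed between 15.9 and 34.8. The HERC6 call was lost without shBP2-1 replicate 2 (0.218), shNS replicate 1 (0.194) or shNS replicate 2 (0.114) and under 4 of 10 other settings (0.0552 to 0.0746).

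PARP9, PARP14 and DTX3L, whose products work in ADP-ribosylation and ubiquitination downstream of interferon, were called higher in 2 of 3 with shBP2-1 and 3 of 3 with shBP2-2. Over all tested genes, 23.2% and 28.5% were called higher, and a group of 3 is small. PARP9 (chromosome 3, 122527924 to 122564784) had 770 and 994 in shBP2-1 and 795 and 760 in shBP2-2, against 575 and 606 in shNS. PARP14 (chromosome 3, 122680839 to 122730840) had 1939 and 2389 in shBP2-1 and 1957 and 1739 in shBP2-2, against 1462 and 1495 in shNS. DTX3L (chromosome 3, 122564338 to 122575203), the neighbour of PARP9, had 1312 and 1540 in shBP2-1 and 1609 and 1524 in shBP2-2, against 1182 and 1230 in shNS. In each gene the knockdown libraries were all above the controls. With shBP2-1 the changes were 0.57 ± 0.13 for PARP9 (adjusted p = 0.0046), 0.54 ± 0.12 for PARP14 (0.00337) and 0.24 ± 0.11 for DTX3L (0.0878, not called). With shBP2-2 they were 0.40 ± 0.13 (0.0196), 0.32 ± 0.12 (0.032) and 0.38 ± 0.11 (0.00982). Their footprints were not called, at -0.32 to 0.32. With shBP2-2, calls were lost without shBP2-2 replicate 1 for PARP9 (0.0688), PARP14 (0.218) and DTX3L (0.072), without shNS replicate 1 for PARP9 (0.12), PARP14 (0.148) and DTX3L (0.0919), and without shNS replicate 2 for PARP9 (0.0588) and PARP14 (0.105). PARP9 also lost its call with no minimum (0.0543) and PARP14 under 3 of 10 other settings (0.0522 to 0.0737).

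Among other induced genes, the neighbours SAMD9 and SAMD9L rose with both hairpins. Their products restrict poxviruses and cell growth. SAMD9 (chromosome 7, 93099518 to 93117979) had 1525 and 1837 in shBP2-1 and 1740 and 1579 in shBP2-2, against 1041 and 1140 in shNS, and rose by 0.62 ± 0.12 (adjusted p = 0.00173) and 0.60 ± 0.12 (0.00104). SAMD9L (chromosome 7, 93130056 to 93148385) had 701 and 851 in shBP2-1 and 646 and 592 in shBP2-2, against 445 and 451 in shNS, and rose by 0.78 ± 0.12 (0.000801) and 0.46 ± 0.13 (0.00766). IFI44 rose by 0.95 ± 0.34 (0.0378) and 1.17 ± 0.34 (0.01) at low values of 26.5 and 31.7 in shBP2-1 and 39.0 and 29.5 in shBP2-2, against 16.9 and 12.9 in shNS. Its neighbour IFI44L, below the minimum, had 7.8 and 7.9 in shBP2-1 and 16.4 and 20.3 in shBP2-2, against 1.0 and 3.0 in shNS. The SAMD9L call with shBP2-2 was lost without shBP2-2 replicate 1 (adjusted p = 0.0531) or shNS replicate 1 (0.0574). The IFI44 call with shBP2-1 was lost without shBP2-1 replicate 2 (0.184), shNS replicate 1 (0.0792) or shNS replicate 2 (0.175) and under 3 of 10 other settings (0.0519 to 0.0699), and that with shBP2-2 without shBP2-2 replicate 1 (0.098) or shNS replicate 2 (0.0634).

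A further group was called with 1 hairpin. With shBP2-2, MX1, the antiviral GTPase, rose by 0.51 ± 0.16 (adjusted p = 0.0182) and XAF1, an antagonist of the apoptosis inhibitor XIAP, by 0.44 ± 0.11 (0.00513). MX2, the relative of MX1 that blocks HIV, fell with shBP2-2 (-0.37 ± 0.09, adjusted p = 0.00482), as did BST2, the tether of budding virions (-0.38 ± 0.12, 0.0148). With shBP2-1, IFI16, a sensor of DNA (-0.33 ± 0.11, 0.0254), and IFI35 (-0.51 ± 0.19, 0.0429) fell. IFI6, ISG20, LGALS3BP, TRIM22, RSAD2 and SP110 mRNA were not called with either hairpin. Of these, ISG20, an RNA exonuclease, had 8.92 to 19.9 over all libraries, LGALS3BP 16.4 to 29.8 and RSAD2, the viperin gene, 16.9 to 40.7. Without shBP2-2 replicate 1, calls were lost for MX1 (0.182), XAF1 (0.0707) and BST2 (0.18). Without shNS replicate 1 they were lost for MX1 (0.114), XAF1 (0.0618), MX2 (0.0706), BST2 (0.128), IFI16 (0.121) and IFI35 (0.147), and without shNS replicate 2 for MX1 (0.063), MX2 (0.0502), IFI16 (0.144) and IFI35 (0.108). IFI16 lost its call without shBP2-1 replicate 1 (0.0847) and with no minimum (0.0635), and IFI35 without shBP2-1 replicate 2 (0.252) and under 5 of 10 other settings (0.0519 to 0.101).

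Tested directly between the hairpins, 8 of 46 members differed in mRNA (17.4%), against 23.2% of all genes (11% higher and 12.1% lower). IFNGR2, BST2 and MX2 were higher with shBP2-1, and XAF1, IFI16, IFITM3 and IRF9 were lower. The count of 8 also includes IFITM1, which passed the minimum only through shBP2-2 and is not read as a difference. XAF1 (chromosome 17, 6755447 to 6775647) had 1164 and 1350 in shBP2-1 and 2199 and 1898 in shBP2-2, against 1456 and 1554 in shNS, so that the hairpins lay on opposite sides of the control (difference -0.70 ± 0.11, adjusted p = 0.000682). IFI16 had 3293 and 4035 in shBP2-1 and 5199 and 4918 in shBP2-2, against 4529 and 4647 in shNS (difference -0.47 ± 0.11, 0.00716). BST2 had 3127 and 2598 in shBP2-1 and 2021 and 2394 in shBP2-2, against 2968 and 2762 in shNS (difference 0.37 ± 0.12, 0.0359), and MX2 differed by 0.30 ± 0.09 (0.0343). The count of 8 became 4 without shBP2-2 replicate 2 (18.4% of all genes). The BST2 difference was lost without shBP2-1 replicate 1 (0.0996), shBP2-2 replicate 1 (0.3), shNS replicate 1 (0.0614) or shNS replicate 2 (0.0601) and under 4 of 10 other settings (0.0569 to 0.102). The MX2 difference was lost without shBP2-2 replicate 1 (0.166), shBP2-2 replicate 2 (0.195), shNS replicate 1 (0.0994) or shNS replicate 2 (0.1) and with sample quality weights (0.068).

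Footprints could be tested for 31 members, and the other 15 that passed for mRNA fell below a mean of 10, a limit set mostly by the deeper shNS libraries. They were IRF7, DHX58, OAS1, OAS2, OAS3, OASL, IFIT1, IFIT2, IFIT5, IFITM1, USP18, ISG20, IFI44, LGALS3BP and RSAD2, with mean deposited footprints of 1.17 to 9.5. Called were 2 higher and 1 lower with shBP2-1 (9.68%, against 6.94% of 9306 genes, 4.3% higher and 2.64% lower) and 1 lower with shBP2-2 (3.23%, against 12.4%, 7.12% higher and 5.23% lower). Between the hairpins 2 differed, both higher with shBP2-1 (6.45%, against 6.18%, 3.48% higher and 2.7% lower). Libraries did not overlap between shBP2-1 and shNS for 12 members above and 8 below, where 62% of all genes did not overlap. Between shBP2-2 and shNS 8 lay above and 11 below, against 54.3% of all genes. With shBP2-1 against shBP2-2 these were 10 and 6, against 60%. The count of 3 with shBP2-1 became 1 without shBP2-1 replicate 1 (1.09% of all genes) or without shBP2-1 replicate 2 (1.25%), and 2 with these libraries as 1 sample (3.83%). The single call with shBP2-2 became 0 (limma) when shBP2-2 replicate 1 was left out (4.77% of all genes), 3 when shNS replicate 1 was left out (13.4%) and 2 when it was shNS replicate 2 (16.3%). The 2 differences became 1 without shBP2-1 replicate 1 (1.23%) or shBP2-2 replicate 2 (3.11%).

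Besides IFNAR1, the footprint calls were IFI16, IFI6 and SP110. IFI16 (chromosome 1, 158999976 to 159055151) had rescaled footprints of 277 and 300 in shBP2-1 and 349 and 372 in shBP2-2, against 443 and 449 in shNS. Every knockdown library was below both controls, by 0.62 ± 0.12 with shBP2-1 (adjusted p = 0.0106) and by 0.30 ± 0.07 with shBP2-2 (0.017), and the hairpins were not called different (-0.32 ± 0.13, 0.159). The IFI16 call with shBP2-1 was lost without shBP2-1 replicate 1 (0.238) or shBP2-1 replicate 2 (0.132) and in the fit over all 12 libraries (0.107), and passed with these libraries as 1 sample (-0.62, 0.0364). That with shBP2-2 was lost without shBP2-2 replicate 1 (0.12) or shBP2-2 replicate 2 (0.0755) and under 4 of 10 other settings (0.0679 to 0.174).

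IFI6 (chromosome 1, 27666064 to 27672192), a small membrane protein that counters flaviviruses, had mRNA values of 279 and 263 in shBP2-1 and 284 and 301 in shBP2-2, against 275 and 292 in shNS, where the groups overlapped. Its footprints were 145 and 146 in shBP2-1 and 97.3 and 105 in shBP2-2, against 92.4 and 82.8 in shNS, with shBP2-1 above all other libraries. The footprint change was 0.75 ± 0.18 with shBP2-1 (adjusted p = 0.0252) and 0.22 ± 0.12 with shBP2-2 (0.283), and translational efficiency rose with shBP2-1 (0.81 ± 0.25, 0.0443). With the shBP2-1 footprint libraries as 1 sample, neither passed (0.0629 for footprints and 0.057 for translational efficiency), and the footprint call was also lost without shBP2-1 replicate 1 (0.252), without shBP2-1 replicate 2 (0.232) and in the fit over all 12 libraries (0.0777). The efficiency call held in 1 of 6 fits that left out a library, with 0.0739 and 0.189 without shBP2-1 replicate 1 and 2, 0.0531 without shBP2-2 replicate 1, 0.117 and 0.189 without shNS replicate 1 and 2, and 0.0538 with no minimum. SP110, a nuclear body protein, had footprints of 101 and 93.9 in shBP2-1 and 59.6 and 46.6 in shBP2-2, against 57.5 and 61.8 in shNS, and differed between the hairpins (0.94 ± 0.24, adjusted p = 0.0375). The SP110 call was lost with the shBP2-1 libraries as 1 sample (0.077), without shBP2-1 replicate 1 (0.304), shBP2-1 replicate 2 (0.196) or shBP2-2 replicate 2 (0.153), and under 2 of 10 other settings (0.0642 and 0.117).

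Footprints of several further members were measured without a call. IRF9 had 13.5 and 18.8 in shBP2-1 and 11.9 and 17.5 in shBP2-2, against 8.31 and 8.14 in shNS, above the controls in all 4 libraries but not called (1.07 ± 0.49 and 0.88 ± 0.32, adjusted p = 0.218 and 0.09). TRIM22, an interferon-induced restriction factor, had 16.9 and 26.3 in shBP2-1 and 34.8 and 43.3 in shBP2-2, against 39.2 and 48.8 in shNS, with changes of -0.95 ± 0.45 and -0.13 ± 0.20 (adjusted p = 0.234 and 0.723). BST2 had footprints of 560 and 601 in shBP2-1 and 469 and 494 in shBP2-2, against 491 and 511 in shNS, and was not called (0.21 ± 0.10 and -0.05 ± 0.07, adjusted p = 0.21 and 0.663).

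**Figure D3:**
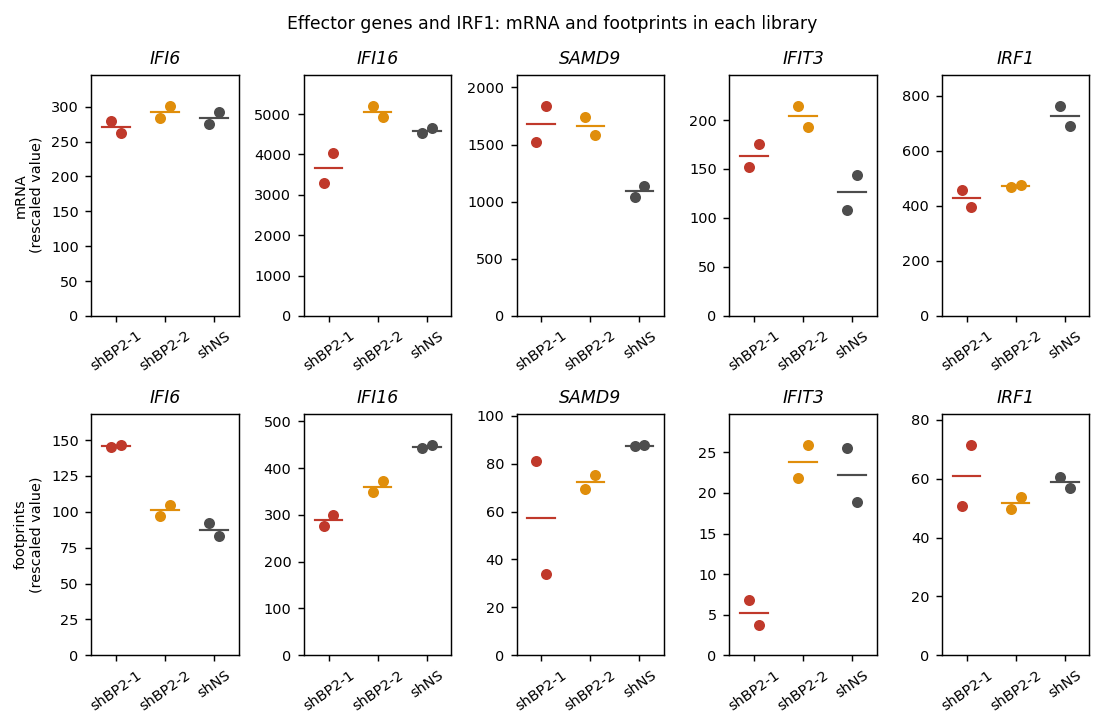
Rescaled mRNA values (upper row) and rescaled footprint values (lower row) of IFI6, IFI16, SAMD9, IFIT3 and IRF1 in each library, with group means as lines (n = 2 libraries each). SAMD9 mRNA is higher with both hairpins while its footprints are not, and IRF1 mRNA is lower with both hairpins while its shBP2-1 footprints, 50.6 and 71.3, lie on either side of shNS.

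Translational efficiency changed in 4 of 31 members with shBP2-1 (12.9%, against 10.7% of 9216 genes, 5.25% higher and 5.44% lower) and in 3 with shBP2-2 (9.68%, against 23.9%, 12% in each direction). With shBP2-1, IFNAR1 and IFI6 were higher and IFIT3 and SAMD9 lower. With shBP2-2, IFNGR1, SAMD9 and IFI16 were lower. SAMD9 had 81.0 and 33.8 footprints in shBP2-1 and 69.5 and 75.04 in shBP2-2, against 87.4 and 87.6 in shNS, beside its higher mRNA, and its efficiency fell by 1.29 ± 0.38 (adjusted p = 0.0401) and by 0.87 ± 0.24 (0.0185). IFI16 efficiency fell with shBP2-2 (-0.44 ± 0.14, 0.0334). HERC5 and IFIH1 lay just outside the threshold with shBP2-2, at -0.77 ± 0.28 and -0.70 ± 0.25 (adjusted p = 0.0504 each). Between the hairpins IFNAR1 was the only member called (3.23%, against 0.781% of all genes, 0.271% higher and 0.51% lower).

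These efficiency counts moved together with the share of all genes called. Here, leaving out a replicate removed its mRNA and its footprint library together. The count of 4 with shBP2-1 became 2 without shBP2-1 replicate 2 (3.3% of all genes) and 1 without shNS replicate 1 (1.06%) or 2 (1.65%). The count of 3 with shBP2-2 became 11 without shBP2-1 replicate 1 (35.8% of all genes) or 2 (35.6%), and 0 by limma without shBP2-2 replicate 1 (3.49%) or shNS replicate 1 (0.879%). It was 1 without shNS replicate 2 (5.69%), and the single difference, IFNAR1, became 2 without shBP2-1 replicate 2 (1.12%). SAMD9 with shBP2-1 was at -0.56 (adjusted p = 0.417) without shBP2-1 replicate 2, and its call was also lost without shNS replicate 1 (0.133) or 2 (0.0939) and under 2 of 9 other settings (0.0501 and 0.0523). With the shBP2-1 footprint libraries as 1 sample it passed (-1.17, 0.0416). With shBP2-2 its call was lost without shBP2-2 replicate 1 (0.131), shNS replicate 1 (0.122) or shNS replicate 2 (0.0739) and under 3 of 9 other settings (0.0966 to 0.144). The IFI16 efficiency call was lost without shBP2-2 replicate 1 (0.228), shBP2-2 replicate 2 (0.054), shNS replicate 1 (0.161) or shNS replicate 2 (0.132) and under 2 of 9 other settings (0.0561 and 0.0608).

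**Figure D4:**
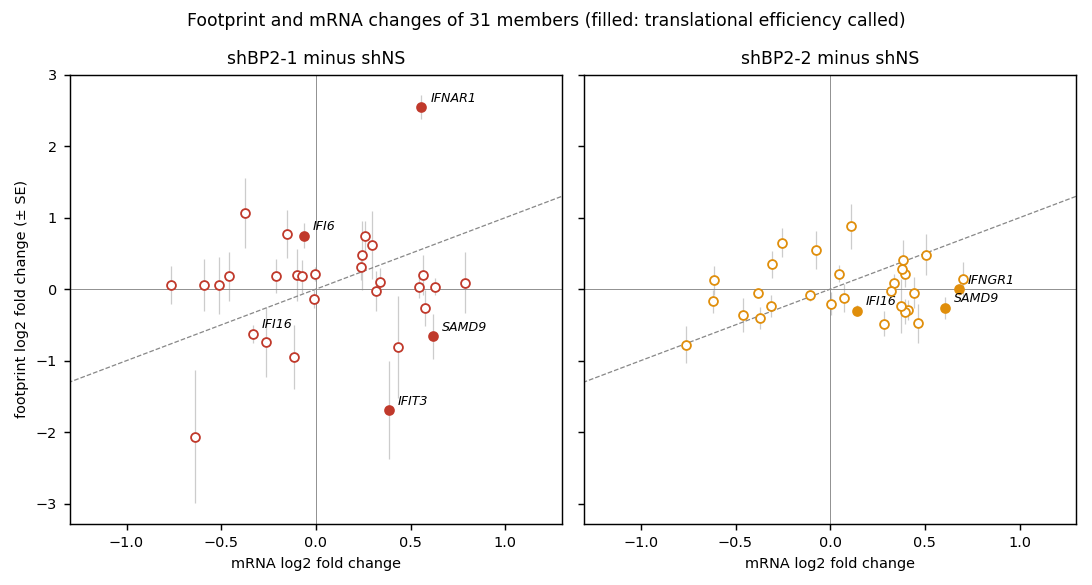
Footprint log2 fold change (± SE) against mRNA log2 fold change for the 31 members tested in both assays, with shBP2-1 at left and shBP2-2 at right, each against shNS. Filled points had a called change of translational efficiency and the dashed line marks equal changes in both assays. IFNAR1 is far above the line with shBP2-1 only, at 2.55 for footprints and 0.56 for mRNA.

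Other genes of the interferon pathway, a list of 67 genes in the table of which 56 passed the mRNA minimum, moved in both directions. With shBP2-1, 14 were higher, 13 lower and 29 not called, with a median of -0.04, where 23.2% of all genes were higher and 21.4% lower. With shBP2-2, 14 were higher, 18 lower and 24 not called, with a median of 0.04, where 28.5% of all genes were higher and 28.4% lower. STAT3, a transcription factor of cytokine signalling, fell with shBP2-2 (-0.77 ± 0.10, adjusted p = 0.000125). TBK1, the kinase that activates IRF3, and the death ligand gene TNFSF10 rose with shBP2-1 (0.73 ± 0.11, 0.000664; 0.72 ± 0.12, 0.000802), and IRF5 fell with shBP2-2 (-0.83 ± 0.14, 0.000459). SOCS1, the feedback inhibitor of the receptor kinases, and the chemokine gene CXCL11 fell with shBP2-1 (-1.60 ± 0.26, 0.00081; -1.93 ± 0.29, 0.00062). CXCL10, another interferon-induced chemokine gene, was higher with shBP2-2 (1.80 ± 0.25, 0.000183) and lower with shBP2-1 (-1.22 ± 0.35, 0.0145), and the hairpins differed by -3.02 ± 0.31 (2.02e-05). The CXCL10 call with shBP2-1 was lost without shBP2-1 replicate 1 (0.103) or shNS replicate 1 (0.0575).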

How the data were processed

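Each of the 12 libraries has 1 column in the authors' deposited table, whose values are normalized read counts rounded to whole numbers by the authors and were treated as a score, not as raw counts. The normalization method was not given in the sources used here. FastQC, cutadapt, Bowtie, STAR, RSEM and build hg38 are named, without versions, in the submitters' processing notes. Values were divided by a median-ratio factor per library within each assay and fitted with limma 3.58.1 in R 4.3.3, with voom weights and an offset of 0.5. Genes needed a mean deposited value of 10, in both assays for translational efficiency, which was tested as an interaction over all 12 libraries (6 residual degrees of freedom, against 3 within each assay). A call needed p under 0.05 after Benjamini-Hochberg adjustment across the genes of a comparison. The fit was tested on simulated data. All called members were named, with a fixed set of others and the 4 other pathway genes of smallest p per hairpin, of which 1 is not reported here. Members and lists were chosen with earlier results of these data known. Replicate numbers were not treated as pairs in the main fit. The alternatives tried were other scalings, pseudocounts of 1 and 5, other minimums, sample weights, a block and leaving out each library. For efficiency, the mRNA and footprint library of a replicate number were left out together. Gene coordinates come from RefSeq, GRCh38.p14.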

Additional observations from a re-analysis of the deposited data

How the results depend on the processing

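Of 1500 gene values recomputed under the alternatives, 1310 kept direction and call, 185 kept direction and lost the call, and 5 reversed. Each value is 1 gene in 1 comparison under 1 setting. They include fits that left out a library of a group outside the comparison. The count of 1310 therefore does not tell how many calls held under every setting. All 5 reversals came from omitting the rescaling, which moved the median gene by -3.32 in footprints and -3.37 in translational efficiency with shBP2-1 (-1.19 and -1.17 with shBP2-2, -2.14 and -2.21 between hairpins): with shBP2-1 IFNAR1 was then at -0.79 in footprints and -1.36 in efficiency, and IFI6 at -2.59 and -2.54, and SP110 footprints differed between hairpins by -1.25. Member counts below follow the order shBP2-1, shBP2-2, between hairpins. Without rescaling, 31, 26 and 30 were called in footprints and 31, 26 and 30 in efficiency, by limma as in all these counts. Quantile scaling together with a limma trend fit gave 6, 0 and 7 in footprints and 10 and 5 in efficiency with shBP2-1 and shBP2-2. The trend fit alone, with pseudocount 1, gave 6, 0 and 6 in footprints and 9 in efficiency with shBP2-1, and pseudocount 5 gave 6, 0 and 6, and 11 and 5. The fit over all 12 libraries gave 1, 0 and 1 in footprints. Sample quality weights gave 5 in footprints with shBP2-1 and 5 between hairpins, 7 and 11 in efficiency with each hairpin, and 3 in mRNA between hairpins. Library totals and no minimum each gave 5 in mRNA between hairpins, and no minimum also 1 in footprints between hairpins and 2 in efficiency with shBP2-1. A minimum of 30 gave 2 in footprints and 6 in efficiency with shBP2-2, and a rescaled minimum 6 in efficiency with shBP2-2. Counting the shBP2-1 footprint libraries as 1 sample, an alternative chosen after seeing the data, gave 1 in footprints between hairpins and 7 in efficiency with shBP2-2. Leaving out 1 library gave 10 to 22, 8 to 29 and 4 to 12 in mRNA, 1 to 4, 0 to 3 and 1 to 2 in footprints, and 1 to 6, 0 to 11 and 1 to 2 in efficiency. In efficiency, these fits left out the mRNA and the footprint library of the same number together, not 1 library. The cause of these shifts was not tested. Deviations of same-numbered mRNA libraries correlated at -0.359 between shBP2-1 and shBP2-2. They correlated at 0.112 between shBP2-1 and shNS and at -0.056 between shBP2-2 and shNS. In footprints the correlations were 0.005 to 0.079. Such correlations cannot show whether libraries of the same or of opposite number shared a culture or batch. A replicate block gave 15, 23 and 6 calls in mRNA, 4, 1 and 2 in footprints, and 6, 9 and 1 in efficiency. The block ended the shBP2-2 calls of STAT2 (adjusted p = 0.0611) and PARP14 (0.0522), the shBP2-1 calls of HERC6 (0.066) and IFI35 (0.0521), and the mRNA differences of BST2 (0.0552) and MX2 (0.101) between hairpins. IFIT3 footprints in shBP2-1 rest on deposited values of 2 and 1.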
